A study of Homo sapiens with 2 samples.

Results

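The 49 Wnt pathway genes described here were taken by symbol from a list that covers ligands, receptors, secreted and cell surface inhibitors, cytoplasmic parts, nuclear factors and target genes, out of 60623 genes counted. They were measured by RNA sequencing of HepG2 cells, an established human hepatocellular carcinoma line labelled as wild type. Both libraries came from cells loaded for 24 h with 1 mM FFA, a mixture of oleic and palmitic acid carried on albumin that serves as a cell culture model of steatosis. The cells of the FFA library had no 9-cis-RA, with the DMSO solvent matched between groups per the methods of the study, and the cells of the FFA + 9-cis-RA library were also given 9-cis-RA at 10 μM. This isomer of retinoic acid is a ligand of the nuclear receptors RXR and RAR. The comparison addresses what 9-cis-RA changes in FFA-loaded cells. No library without FFA was analysed here. With 1 library in each group the values have neither a p-value nor an error between replicates, and the treatment cannot be told apart from any other difference between the 2 cultures.

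Wnt ligands are secreted proteins that bind Frizzled (FZD) receptors together with the co-receptors LRP5 and LRP6. Binding holds back a cytoplasmic complex built on AXIN and APC, in which GSK3B marks β-catenin (CTNNB1) for breakdown. β-catenin that escapes enters the nucleus and joins TCF/LEF factors on target genes, several of which encode inhibitors that damp the pathway again. In the liver the pathway is known for setting the gene program of hepatocytes around the central vein. HepG2 cells are known to carry an activating deletion in a copy of CTNNB1, so the line is a model of hepatocytes in which the pathway is active below the receptors. The counts do not separate the copies.

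Gene counts summed to 60821539 with FFA and to 57669670 with FFA + 9-cis-RA. Genes known to respond to retinoic acid served to check the labels. CYP26A1, which breaks down retinoic acid, had 4 counts with FFA and 709 with FFA + 9-cis-RA, the receptor gene RARB had 6 and 46, and the retinal reductase gene DHRS3 had 1126 and 1999. The 7 hepatocyte markers were detected in both libraries, with a summed level of 328328 and 261778 normalized counts per kb of exon. Most of the difference between these sums came from AFP, at a log2 fold change of -0.99, and ALB, at -0.70. The other 5 markers lay between -0.27 for TTR and 0.04 for APOA1, and the part of these markers in the Wnt values was not tested. The 7 markers of blood, stromal and endothelial cells summed to 27.2 and 22.9 on the same scale, and PTPRC had 0 counts in both libraries. COL1A1, COL1A2 and LUM had at most 3 counts per library. The rest were detected at low counts. VWF had 184 counts with FFA and 118 with FFA + 9-cis-RA, PECAM1 had 52 and 29, and CD68 had 5 and 15. In bulk RNA, fewer cells that express a gene and less RNA per cell cannot be told apart.

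Of the 49 Wnt genes, 40 had at least 10 counts over both libraries and were compared, and 37 had at least 100. No fragment of DKK2, SFRP2, WIF1 or FZD10 was counted (0 in each library). Up to 3 counts are compatible with a 0, or 0.0493 CPM (counts scaled to the library total) with FFA and 0.0520 CPM with FFA + 9-cis-RA. Another 5 genes had between 1 and 9 counts in all. SFRP5 and FZD2 each had 3 counts with FFA and 2 with FFA + 9-cis-RA, and LEF1 had 1 in each. WNT5A had 0 and 4 counts and WNT5B had 0 and 1, so no fold is given for them.

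Expression in the FFA library differed over several orders of magnitude, as the plot of levels by role shows. Levels are given as counts divided by the size factor of the library and by the exonic length in kb, so that genes can be set side by side. The secreted inhibitor NOTUM had the highest level of the 49 genes, at 5423 normalized counts per kb with FFA and 8127 with FFA + 9-cis-RA. The target genes SP5 and TBX3 followed in the FFA library, at 3646 and 2426. CTNNB1 stood at 2218 and DVL1 at 2201. At the lower end of the 40 genes compared were the ligand WNT10A at 3.39, the receptor FZD8 at 1.97 and the secreted protein DKK3 at 0.994.

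**Figure D1:**
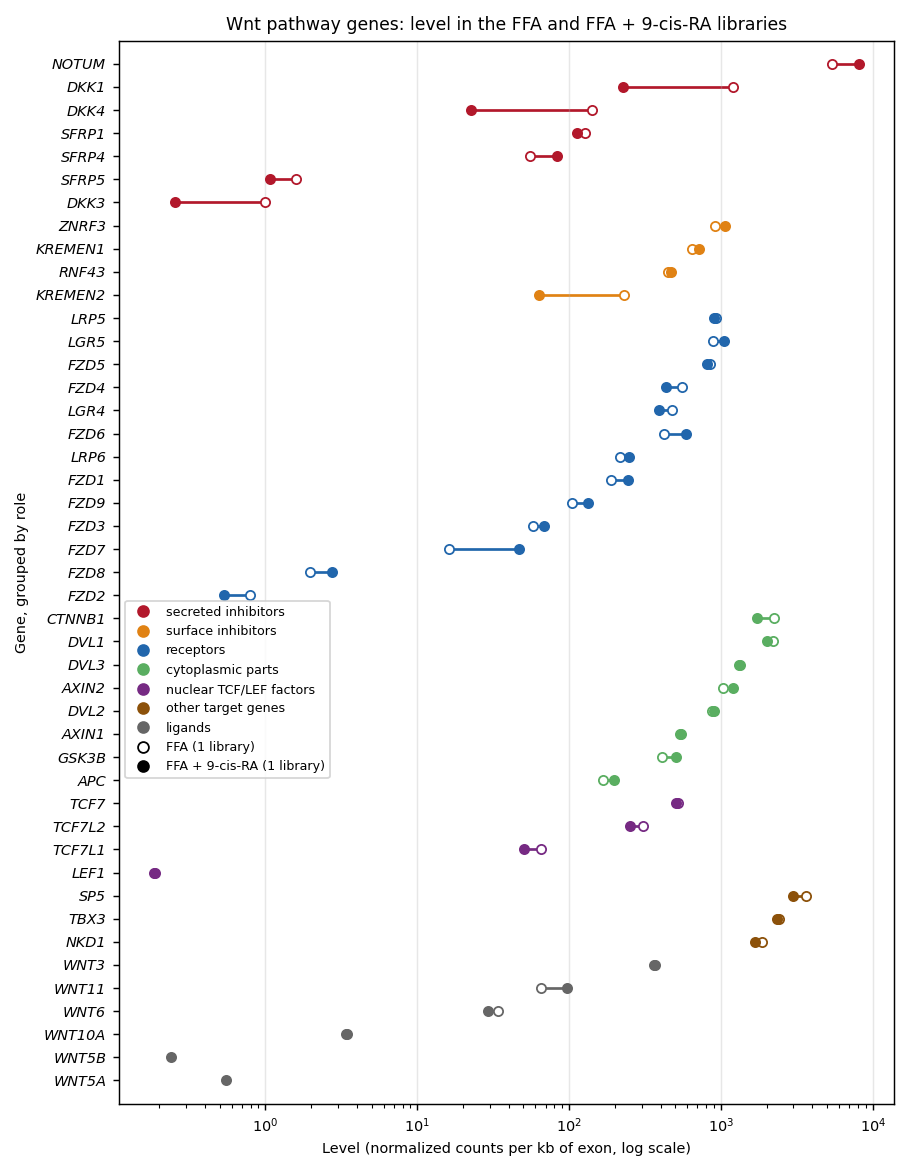
Level of each Wnt gene with at least 1 count, grouped by role, in the FFA library (open circles) and the FFA + 9-cis-RA library (filled circles), in normalized counts per kb of exon on a log axis. A library with 0 counts has no circle, and the longest lines between circles, for genes above a level of 10 in the FFA library, belong to DKK1, DKK4, KREMEN2 and FZD7.

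The middle of the Wnt genes lay near no difference. The log2 fold change (or log2 ratio), FFA + 9-cis-RA against FFA with 1 added to each normalized count, had a median of -0.0010 over the 40 genes compared and of -0.020 over all 20431 genes compared. Of the 40, 20 were higher and 20 lower. With an exact 95% interval that covers counting error only, 15 lay above 0, or 37.5% against 22.5% of all genes. Another 15 lay below 0, or 37.5% against 25.7% of all genes, and 10 held 0. Intervals narrow with depth. Among genes with at least 100 counts, 40.5% of the members lay above 0 against 29.1% of all genes, and 37.8% lay below 0 against 32.2%. LRP5, DVL3, TCF7 and WNT3 lay so close to 0 that their direction turned when libraries were scaled to total counts, while the direction of the other 36 did not depend on the scaling.

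Past a log2 fold change of 1, FZD7 was the 1 member higher with FFA + 9-cis-RA, where 3.37% of all genes were above this value. DKK1, DKK3, DKK4 and KREMEN2 were lower by more than 1, which is 10.0% of the 40 genes, where 4.90% of all genes were below -1. DKK3, with 12 counts with FFA and 3 with FFA + 9-cis-RA, reached the minimum of 10 only through its FFA library. Past 0.5, FZD7, NOTUM, SFRP4 and WNT11 were higher, 10.0% of the members against 9.03% of all genes. The same 4 genes as at -1 were below -0.5, against 14.3% of all genes. The remaining 32 genes lay within 0.5 of no difference.

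Low counts spread the fold changes of all genes, and a minimum of 100 counts, chosen after the data were seen, left 37 members and 14411 genes. At that minimum 3 members, DKK1, DKK4 and KREMEN2, were below -1, or 8.11% of the members against 1.76% of all genes. FZD7 alone was above 1, or 2.70% against 0.548%. The minimum is on the sum of both libraries, for the members and for all genes. DKK4, with 128 counts with FFA and 20 with FFA + 9-cis-RA, reached 100 only through its FFA library. FZD7, with 63 and 178, did so only through its FFA + 9-cis-RA library. DKK1 and KREMEN2 had at least 100 counts in each library. A minimum for each library was not tested. Above 0.5 were 10.8% of the members against 3.48% of all genes, and below -0.5 were 8.11% against 7.85%. The plot of fold change against expression places these genes beside all others.

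**Figure D2:**
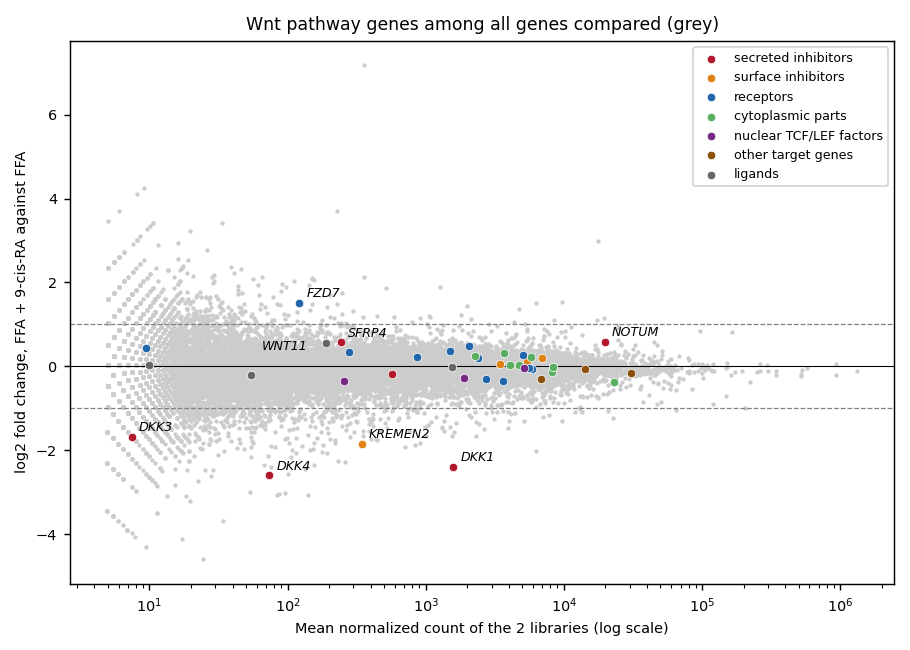
Log2 fold change (FFA + 9-cis-RA against FFA, 1 library per group) against the mean normalized count of the 2 libraries on a log axis, for all genes compared (grey) and the Wnt genes (coloured by role), with dashed lines at 1 and -1. The 8 named genes are those past 0.5 in either direction, and DKK1 and KREMEN2 lie below -1 at counts where few grey points do.

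Secreted inhibitors differed in both directions, with log2 fold changes from -2.59 to 0.58, the widest range of the 7 member roles. The dickkopf proteins bind LRP5 and LRP6 and block their use by Wnt ligands, and DKK1 is itself a known Wnt target. DKK1 (chr10:52314281-52318042, plus strand) had 2679 counts with FFA and 498 with FFA + 9-cis-RA, a level of 1195 and 226 normalized counts per kb. This was 5.27-fold lower with FFA + 9-cis-RA (95% counting interval 4.79 to 5.82), a log2 fold change of -2.40 (-2.54 to -2.26). Of the 14411 genes with at least 100 counts, 9 had a lower log2 fold change. DKK4 (chr8:42374063-42377229) had 128 and 20 counts, with a log2 fold change of -2.59 (-3.41 to -1.96), and 5 genes lay lower. Both dickkopf genes thus stood among the lowest genes of the comparison, from levels that differed 8.44-fold in the FFA library and 10.0-fold in the FFA + 9-cis-RA library.

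DKK3, which differs from the other dickkopfs in that it is not known as a strong LRP blocker, had 12 and 3 counts and a log2 fold change of -1.68. Its interval ran from -4.44 to -0.083, so at this depth the size of its difference is poorly known. The summed level of the DKK genes went from 1337 to 249 normalized counts per kb, of which DKK1 made up 89.3% and 90.9%.

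Promoter sequence was compared for DKK1 and SP5 because both are known Wnt targets with unequal log2 fold changes, -2.40 and -0.30. A further reason was that they held the most matches to the core letters of TCF/LEF sites among the members with a promoter entry. RefSeq promoters of build GRCh38.p14, from 250 bases before to 50 bases from the start on, matched 30 of the 49 genes, with 37 entries. The known targets AXIN2, NKD1, TBX3, LGR5, ZNRF3, NOTUM and DKK4 had no entry and could not be searched, nor could KREMEN2 and FZD7. CTTTGA or CTTTGT was searched on both strands. These letters occurred in 8 of the 37 member promoters, or 21.6%, and in 26.2% of all 35116 promoters. At least 3 matches occurred in 2 of the 37 member promoters, those of DKK1 and SP5, and in 0.886% of all promoters. As these 2 were picked partly for their matches, the contrast was set by that choice and is no test. In the sequences below, printed on the strand of the gene, capitals mark these letters on either strand. DKK1 lies at chr10:52314031-52314330 and SP5 at chr2:170715087-170715386, both on the plus strand.
DKK1: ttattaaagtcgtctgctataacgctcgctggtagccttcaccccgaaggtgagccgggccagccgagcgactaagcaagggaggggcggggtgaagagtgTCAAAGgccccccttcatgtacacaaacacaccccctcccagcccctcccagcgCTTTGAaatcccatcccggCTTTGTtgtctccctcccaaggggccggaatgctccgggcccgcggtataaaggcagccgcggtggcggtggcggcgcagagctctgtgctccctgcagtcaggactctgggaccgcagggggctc
SP5: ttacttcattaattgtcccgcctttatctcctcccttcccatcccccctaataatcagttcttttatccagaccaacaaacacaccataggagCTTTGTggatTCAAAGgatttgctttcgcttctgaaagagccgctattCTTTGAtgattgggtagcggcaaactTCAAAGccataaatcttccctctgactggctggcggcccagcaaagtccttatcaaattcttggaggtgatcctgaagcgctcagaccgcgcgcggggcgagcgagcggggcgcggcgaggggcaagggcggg
DKK1 held 3 matches, whose first bases lie at -149, -95 and -76 from the start, and a TATAAA at -30, letters found in 10.8% of the member promoters and 11.5% of all. SP5 held 4, at -157, -147, -109 and -83, a number reached by 0.111% of all promoters. The GC content was 63.7% for DKK1 and 52.3% for SP5. AGGTCA or AGTTCA, the letters of nuclear receptor half-sites, were in 5 of the 37 member promoters, or 13.5%, and in 22.6% of all promoters, and neither sequence above held them. The paired element known as the DR5 retinoic acid response element, which holds 2 of these half-sites in the same direction, was in 0 of the 37 and in 0.0883% of all promoters. CCGCCC, the core of GC boxes, was in 75.7% of the member promoters and 45.0% of all. A match is a description of letters and no match concerns this window alone.

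NOTUM, a secreted enzyme that removes the lipid Wnt ligands need for binding their receptors, is another known Wnt target, and it differed in the other direction. NOTUM (chr17:81952507-81961840) had 15950 counts with FFA and 23449 with FFA + 9-cis-RA, giving a log2 ratio of 0.58 (0.55 to 0.61). Its level stood at the 98.0 percentile of the genes compared in the FFA library. The level of NOTUM was 4.54 times that of DKK1 in the FFA library and 35.9 times in the FFA + 9-cis-RA library.

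The secreted frizzled-related proteins (SFRPs) carry a Frizzled-like domain and bind Wnt ligands outside the cell. SFRP4 (chr7:37905932-38025695) had 196 and 288 counts and a log2 ratio of 0.58 (0.32 to 0.85). SFRP1 had 607 and 528 counts and a log2 fold change of -0.17 (-0.34 to -0.0029), an interval that ends just under 0. SFRP1 and SFRP4 therefore lay on opposite sides of 0, and the summed level of the 4 SFRP members was 184 and 197 normalized counts per kb. FRZB, listed outside the members, is not in this sum. It had 30 and 15 counts and a log2 fold change of -0.93 (-1.97 to -0.033).

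As a list, the secreted inhibitors had a median log2 fold change of -0.93 over the 6 of 10 genes compared. Without DKK3, at a minimum of 100 counts, the median was -0.17, so the first value rests on a gene with few counts. Of the 6, 2 were higher, NOTUM and SFRP4, and 4 were lower, the 3 DKK genes and SFRP1. Summed over the list, the level was 6944 normalized counts per kb with FFA and 8573 with FFA + 9-cis-RA. NOTUM made up 78.1% and 94.8% of these sums and DKK1 17.2% and 2.64%, as the plot of summed levels shows.

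**Figure D3:**
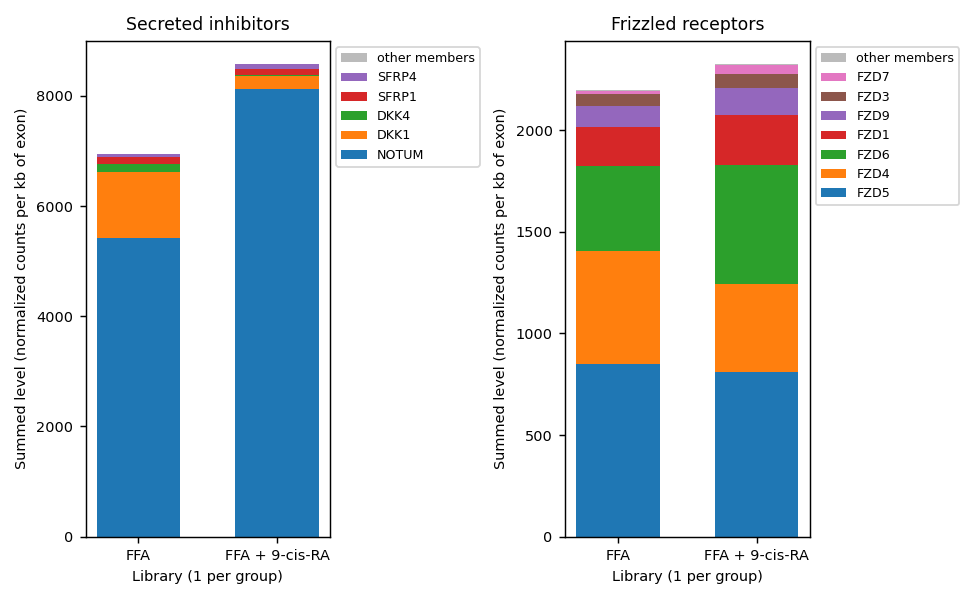
Summed level of the secreted inhibitors (left) and of the Frizzled receptors (right) in each library, in normalized counts per kb of exon, with 1 bar per library and genes at or below a level of 10 in the FFA library joined as other members. NOTUM takes 78.1% and then 94.8% of the inhibitor sum, and FZD6 takes 19.1% and then 25.4% of the Frizzled sum.

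Inhibitors at the cell surface showed 1 large difference among 4 genes. The kremen proteins bind dickkopfs and, with them, take LRP6 off the cell surface. KREMEN2 (chr16:2964216-2968383) had 546 counts with FFA and 148 with FFA + 9-cis-RA, a level of 231 and 63.8 normalized counts per kb. It was 3.60-fold lower with FFA + 9-cis-RA (3.01 to 4.37), a log2 fold change of -1.85 (-2.13 to -1.59), and 31 of the 14411 genes with at least 100 counts lay lower. KREMEN1, its paralog, had 5210 and 5622 counts and a log2 fold change of 0.14 (0.083 to 0.19). The level of KREMEN1 was 2.80 times that of KREMEN2 in the FFA library and 11.2 times in the FFA + 9-cis-RA library. Thus the kremen gene with the lower level was the lower one with FFA + 9-cis-RA, and the other differed little.

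RNF43 and ZNRF3 are membrane ubiquitin ligases that remove Frizzled receptors from the cell surface and are known Wnt targets. ZNRF3 had the highest level of the surface inhibitors in the FFA library, 916 normalized counts per kb, and its 6465 and 7314 counts gave a log2 fold change of 0.21 (0.16 to 0.25). RNF43 had 3411 and 3498 counts and a log2 fold change of 0.064, its interval holding 0. Of the exonic bases of RNF43, 59.5% overlap another gene on the same strand, and fragments that fall on both were not counted. The median of the 4 surface inhibitors was 0.10.

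Most receptors were higher with FFA + 9-cis-RA, by small amounts. Of 14 receptor genes 12 were compared, with a median log2 fold change of 0.24. Among the 12, 8 were higher and 4 lower, where 9751 of all 20431 genes compared were higher. The interval lay above 0 for 7, or 58.3%, where it did for 22.5% of all genes, below 0 for 3, or 25% against 25.7%, and held 0 for 2. At a minimum of 100 counts, 63.6% of the receptors lay above 0 against 29.1% of all genes, and 27.3% lay below 0 against 32.2%. FZD7, a Frizzled receptor studied in liver cancer, was the member with the highest log2 fold change. FZD7 (chr2:202034587-202038445) had 63 counts with FFA and 178 with FFA + 9-cis-RA, giving a log2 ratio of 1.51 (1.10 to 1.96). Among the genes with at least 100 counts, 23 lay higher. Its level was low in both libraries, 16.2 and 46.6 normalized counts per kb, and it supplied 0.736% and 2.00% of the summed Frizzled level.

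FZD5, FZD4 and FZD6 had the highest levels of the Frizzled genes in both libraries. FZD5 had 6045 and 5635 counts and a log2 ratio of -0.074 (-0.13 to -0.021). FZD4 had 4148 and 3171 counts and a log2 ratio of -0.36 (-0.43 to -0.29). FZD6 had 1723 and 2375 counts and a log2 ratio of 0.49 (0.40 to 0.58). FZD4 and FZD6 thus changed places in the order of levels, from 556 against 420 normalized counts per kb in the FFA library to 433 against 590 in the FFA + 9-cis-RA library. FZD1, FZD3 and FZD9 were higher by 0.36, 0.23 and 0.35 on the log2 scale, with intervals above 0, and FZD8 had 8 and 11 counts. Summed over the 10 Frizzled genes the level was 2197 and 2326.

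The co-receptors LRP5 and LRP6 differed little. LRP5, the receptor gene with the highest level in the FFA library at 922 normalized counts per kb, had 5753 and 5507 counts and a log2 fold change of -0.035 (-0.089 to 0.018). LRP6 had 2261 and 2529 counts and a log2 fold change of 0.19 (0.11 to 0.27). LGR4 and LGR5 bind R-spondins, which protect Frizzled receptors from RNF43 and ZNRF3, and LGR5 is a known target gene. They lay on opposite sides of 0. LGR4 had 3058 and 2449 counts and a log2 ratio of -0.29 (-0.37 to -0.22), and LGR5 had 4648 and 5455, a log2 fold change of 0.26 (0.20 to 0.32).

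**Figure D4:**
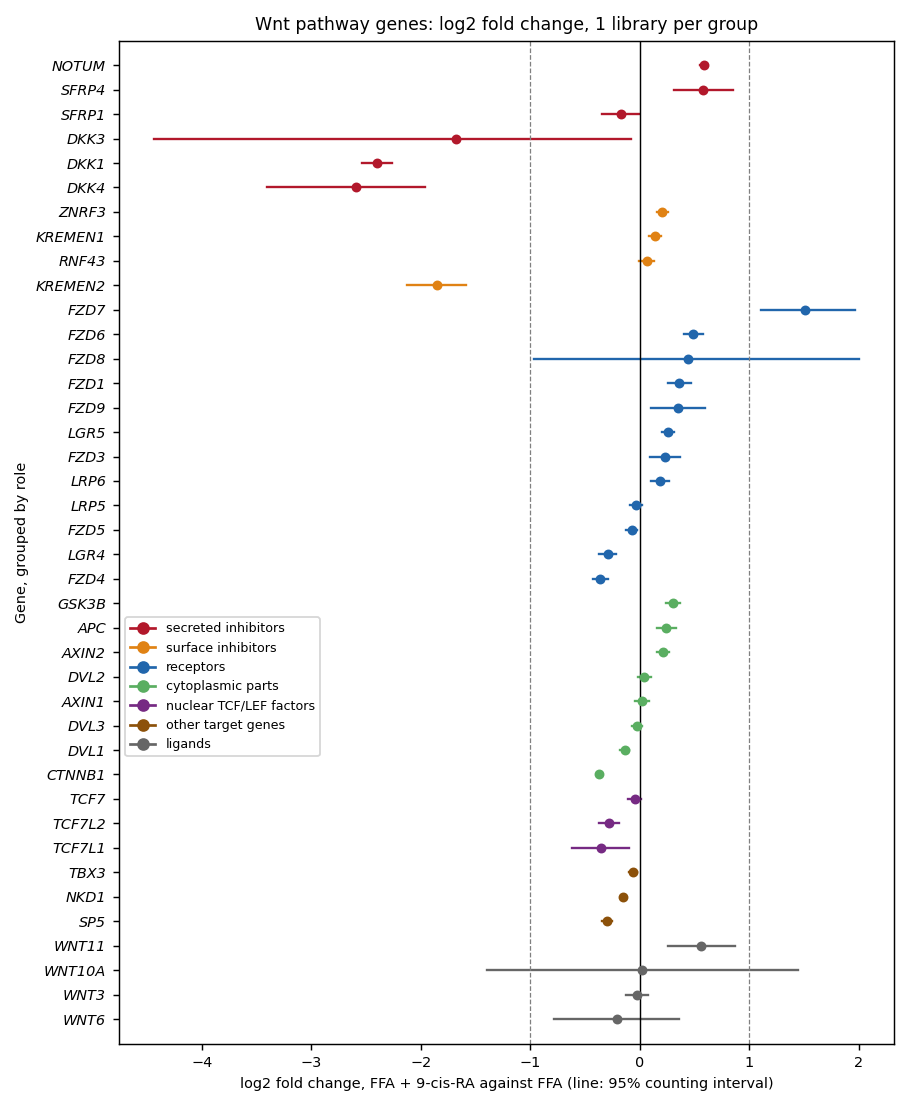
Log2 fold change of the 40 Wnt genes compared, FFA + 9-cis-RA against FFA with 1 library per group, ordered within each role. Lines are exact 95% intervals for counting error only, dashed lines mark 1 and -1, and the genes beyond the dashed lines are DKK1, DKK3, DKK4, KREMEN2 and FZD7.

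Cytoplasmic parts all lay within 0.5 of no difference. CTNNB1, which encodes β-catenin, had the highest level of the 8 in the FFA library and the lowest log2 fold change. It had 26336 counts with FFA and 20024 with FFA + 9-cis-RA, giving a log2 ratio of -0.37 (-0.39 to -0.34). GSK3B, APC and AXIN2, of the complex that marks β-catenin for breakdown, lay on the other side. GSK3B, the kinase, had 3355 and 4065 counts and a log2 fold change of 0.30 (0.24 to 0.37). APC, a scaffold, had 2102 and 2439 counts and a log2 fold change of 0.24 (0.16 to 0.33). AXIN2, the scaffold that is also a widely used Wnt target, had 5443 and 6179 counts and a log2 fold change of 0.21 (0.16 to 0.26).

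AXIN1, the scaffold that does not follow pathway activity, had 4070 and 4049 counts and a log2 fold change of 0.020, its interval holding 0. The level of AXIN2 was 1.93 times that of AXIN1 in the FFA library and 2.20 times in the FFA + 9-cis-RA library, and 25.2% of the exonic bases of AXIN2 overlap another gene. The dishevelled proteins pass the signal from Frizzled to the complex. DVL1 had 8625 and 7685 counts and a log2 fold change of -0.14 (-0.18 to -0.094), and DVL2 and DVL3 had values of 0.042 and -0.022 with intervals that held 0. Their summed level was 4405 and 4209 normalized counts per kb. The median of the 8 cytoplasmic parts was 0.031.

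The TCF/LEF factors that carry β-catenin to DNA were lower or near 0. TCF7 had the highest level of the 4, and its 5310 and 5042 counts gave a log2 fold change of -0.047 (-0.10 to 0.0088). TCF7L2 had 2094 and 1690 counts and a log2 ratio of -0.28 (-0.37 to -0.19), and TCF7L1 had 291 and 223, a log2 fold change of -0.35 (-0.61 to -0.10). The median of the 3 factors compared was -0.28. LEF1 was at 1 count in each library, so TCF7, TCF7L1 and TCF7L2 made up nearly the whole summed level of 894 and 809 normalized counts per kb.

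The remaining 3 member targets lay below 0. SP5, a repressor induced by Wnt signals whose promoter is printed with that of DKK1, had 7634 counts with FFA and 6091 with FFA + 9-cis-RA, giving a log2 ratio of -0.30 (-0.35 to -0.25). NKD1, an inhibitor that binds dishevelled, had 32748 and 28901 counts, the most of any member, and a log2 fold change of -0.15 (-0.18 to -0.13). TBX3, a transcription factor, had 14600 and 13711 counts and a log2 fold change of -0.063 (-0.097 to -0.029). These intervals do not hold 0, yet the differences are small, and the spread between cultures is unknown.

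Of the members, 12 were listed here as known targets of the pathway, whichever role they have, and this list need not be complete. The 12 were AXIN2, NKD1, SP5, TBX3, LGR5, RNF43, ZNRF3, NOTUM, LEF1, TCF7, DKK1 and DKK4. Of these, 11 were compared, with a median log2 fold change of -0.047, 5 higher and 6 lower. The direction of this median turned with scaling to total counts. DKK1 and DKK4 lay below -1, or 18.2% of the 11 against 1.76% of all genes with at least 100 counts. DKK4 reached that minimum only through its FFA library. NOTUM lay above 0.5, or 9.09% against 3.48%, and the other 8 lay within 0.5 of no difference. Intervals lay above 0 for 4, or 36.4% against 29.1%, and below 0 for 5, or 45.5% against 32.2%. Leaving out DKK1 and DKK4, which was chosen after the values were seen, the median of the other 9 was 0.064. The listed targets thus did not differ in 1 direction, and the size of the difference for DKK1 and DKK4 was not shared by the rest of the list.

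Of the 6 ligand genes, 4 had enough counts to be compared, and WNT3 far exceeded the others. WNT3, which acts through β-catenin, made up 78.2% and 73.5% of the summed ligand level of 470 and 491 normalized counts per kb. WNT3 had 1581 counts with FFA and 1524 with FFA + 9-cis-RA, giving a log2 ratio of -0.025 (-0.13 to 0.077). WNT11, known mainly for signals that do not run through β-catenin, had 156 and 226 counts. WNT11 (chr11:76186325-76210736) was higher with FFA + 9-cis-RA, with a log2 fold change of 0.56 (0.26 to 0.87). WNT6 had 59 and 50 counts and WNT10A had 10 in each library, and both intervals held 0. The median of the 4 ligands compared was -0.00010.

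A further 67 genes of the pathway outside the members were listed by role, and 42 of them were compared. Their median log2 fold change was 0.027, with 22 higher and 20 lower. Past 1 lay 1 gene higher and 2 lower, and past 0.5 lay 4 higher and 5 lower. These are 2.38% and 4.76% of the 42 past 1, against 3.37% and 4.90% of all genes, and 9.52% and 11.9% past 0.5, against 9.03% and 14.3%, so they lie near the background. The gene higher by more than 1 was the ligand WNT2B, which had 1 count with FFA and 20 with FFA + 9-cis-RA. Its ratio was 10.7 with 1 added to each normalized count, which lowers it at such counts. The interval, which has no added count, was 3.26 to 845.0. The genes lower by more than 1 were the ligand WNT7B, with 27 and 9 counts and a log2 fold change of -1.46 (-2.83 to -0.43), and the protease MMP7, a known target, with 182 and 80 counts and -1.15 (-1.56 to -0.77).

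By role, 5 of 19 other ligands and export genes were compared, with a median log2 fold change of -0.10. Among those not compared, the export gene WLS had 0 counts in both libraries, and the R-spondin genes RSPO1 to RSPO4 had at most 2 counts per library. Of 10 other receptors and inhibitors 5 were compared, with a median of -0.23. The 21 of 23 other cytoplasmic and nuclear parts compared had a median of 0.18, with 14 higher and 7 lower. Intervals lay above 0 for 10, or 47.6% against 22.5% of all genes, and below 0 for 5, or 23.8% against 25.7%. At a minimum of 100 counts, 52.6% lay above 0 against 29.1% of all genes, and 26.3% lay below 0 against 32.2%. The higher ones included the casein kinase gene CSNK1A1 at 0.37 (0.31 to 0.43), the coactivator gene BCL9L at 0.38 (0.33 to 0.44) and the corepressor gene TLE3 at 0.57 (0.47 to 0.67). Among the lower ones were the paralogs of these last, BCL9 at -0.14 (-0.22 to -0.07) and TLE4 at -0.31 (-0.47 to -0.16).

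The 11 of 15 other target genes compared had a median log2 fold change of 0.038 and, for the 9 with at least 100 counts, of -0.35, so the direction of this median depends on 2 genes with few counts. GLUL, the glutamine synthetase of hepatocytes around the central vein, had 19368 and 14547 counts and a log2 fold change of -0.39 (-0.42 to -0.35). CCND1, a cyclin, had 12598 and 9327 counts and a value of -0.41 (-0.44 to -0.37). MYC, a growth regulator, had 15129 and 16028 counts and a value of 0.11 (0.08 to 0.14). OAT, another gene of central hepatocytes, was at 0.29 (0.25 to 0.33) and RHBG, an ammonium transporter, at 0.04, its interval holding 0. TNFRSF19 was at -0.35 (-0.40 to -0.31) and CYP1A2 at -0.52 (-1.04 to -0.03). Of the 9 with at least 100 counts, 4 were higher and 5 lower. Intervals lay above 0 for 2, or 22.2% against 29.1% of all genes at that minimum, and below 0 for 5, or 55.6% against 32.2%. The targets outside the members, as those among them, thus lay on both sides of 0, though the well-counted ones more often had intervals below it.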

How the data were processed

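Poly(A) RNA of 2 HepG2 libraries, 1 per group, was sequenced as stranded libraries, and the sample records place both in the same batch. The deposited values are raw counts of fragments per GRCh38 gene, from featureCounts version 2.0.1 (strand setting 2, both ends mapped). It left out reads with more than 1 place in the genome or more than 1 gene, so overlapping genes are undercounted. The aligner and the annotation release behind the counts are not given in the sources used here. Gene types for the protein-coding background were taken from GENCODE release 29. Symbols were matched for 60295 of 60623 identifiers. From the counts, R 4.3.3 gave median-of-ratios size factors (DESeq2 1.42.0) and, as an alternative, TMM (edgeR 4.0.16). Log2 fold changes and Clopper-Pearson exact 95% intervals came from scipy 1.17.1 (numpy 2.4.6, pandas 2.3.3, Python 3.11.15), and matplotlib 3.10.9 drew the plots. The comparison took genes whose 2 libraries summed to 10 counts or more, with a pseudocount of 1, which understates the change of genes with few counts. Floors are 3 counts per library. Intervals and floors cover counting error only, and amplified fragments are not independent molecules. No count model was fitted, for lack of replicates.

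The members and gene lists were chosen with earlier results of these data known. Genes were named with their fold change where they passed 0.5 in either direction or had the highest level of their role, and in the other pathway lists where they passed 1. Further genes are given so that each member is accounted for, and those named as examples in the other lists were chosen after their values were seen. The alternatives were scaling by TMM or by total counts, a pseudocount of 0.1 or 5, no count minimum and minimums of 50 and 100, protein-coding genes as the background, and the whole interval past the threshold. The steps were tested on simulated data with counting error alone, which held neither a spread between cultures nor amplified copies of fragments.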

Additional observations from a re-analysis of the deposited data

How the results depend on the processing

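The counts of members past a fold and the role medians gave 96 values under the alternatives that stayed within the limits set for the reported ones, and 3 that did not. For a median, the limits were the medians of the lower and of the upper interval bounds of its genes. They are wide for the secreted inhibitors, at -1.44 and -0.043, and a median could change sign within them. The protein-coding background could not change the counts of members, so staying within the limits there was fixed in advance. Minimums of 50 and 100 could not change some medians either, as all compared genes of those lists had at least 100 counts. Those lists were the surface inhibitors, the cytoplasmic parts, the group of SP5, NKD1 and TBX3, the TCF/LEF factors and the known targets. For the first 3 of them, leaving out the count minimum could not change the median either. Without a count minimum, 3 members were above 1, the added ones being WNT5A and WNT5B with at most 4 counts. With the whole interval required past the fold, 2 members were above 0.5. Scaled to total counts, the median of SP5, NKD1 and TBX3 was -0.10. No direction turned among the fold changes of named genes past 0.5, and those of LRP5, TCF7 and WNT3 turned with total counts, to 0.014, 0.0021 and 0.024. FZD6 passed 0.5 under TMM (0.51) and total counts (0.54). The value of DKK3 ranged from -1.94 to -1.07 with the pseudocount and that of WNT2B from 2.07 to 4.22. The median of the secreted inhibitors was -0.40 without a count minimum, -0.62 with a pseudocount of 5 and -1.06 with 0.1. Of all genes past 1, 59.3% were lower, against 39.8% with no count minimum, 70.2% and 76.3% at minimums of 50 and 100, and 70.6% with the whole interval past 1. Scaling moved the median of all genes from -0.020 to at most 0.029. No library could be left out, since each group has 1. No paired analysis was possible because the groups share fewer than 2 replicate numbers. Depth limits the 5 members with 1 to 9 counts and the 3 with 10 to 99, and the 95% intervals do not hold the spread between cultures.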
